A study of Rattus norvegicus with 8 samples.

Results

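The mRNA of *Rarres2*, of the 3 receptors that bind its product and of 5 chemokine receptors was measured in the hypothalamus of rats after injection of retinoic acid (RA) into the brain. The 9 genes were taken by name, with no threshold on a measured value in the rule, but with earlier results of these data known. They are thus no independent choice. All 9 were among the 15159 named genes on the array. *Rarres2* encodes chemerin, and *Cmklr1*, *Cmklr2* and *Ccrl2* encode its receptors. *Ccr1*, *Ccr2*, *Cxcr3*, *Cxcr4* and *Ackr3* encode receptors for chemokines. Both kinds of receptor belong to the family of proteins that cross the membrane repeatedly and mostly couple to G proteins.

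Male F344 rats, a strain that responds to day length, were held in short days of 8 hours of light and 16 hours of darkness. According to the methods, they received 5 μl of RA into the third ventricle, or vehicle alone, and hypothalamic blocks were taken 24 hours later, at 3 hours after lights on. The labels give the RA as 1e-05 M and the vehicle as saline, whereas the methods give 1e-04 M in 10% DMSO in saline. Both treatments shared strain, sex and photoperiod, and the methods give 4 rats per treatment. RNA of an RA rat and of a vehicle rat was hybridised together on each of 8 two-colour arrays, with RA in the red dye (Cy5) on arrays 1, 3, 6 and 8 and in the green dye (Cy3) on arrays 2, 4, 5 and 7. The sources used here do not say which arrays carry the same rats, and with 4 rats per treatment on 8 arrays some arrays must share them. Of the 24 ways to pair arrays of opposite dye order, the one joining 1 with 2, 3 with 4, 6 with 7 and 8 with 5 gave the highest correlation of paired arrays across probes, 0.324, against -0.195 in the lowest. This is a hint from the data and not from the labels, but arrays 6 and 7 may repeat the same rats and are not counted as independent. In bulk tissue of this kind, fewer cells of a type and less RNA per cell cannot be told apart.

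As background, chemerin is secreted as a precursor and becomes active when proteases trim its C-terminus. CMKLR1 is its main signalling receptor and is carried by macrophages, dendritic cells and natural killer cells, CMKLR2 (GPR1) binds it with similar affinity, and CCRL2 binds and presents it without signalling of its own. The *Rarres2* gene takes its name, retinoic acid receptor responder, from its induction by retinoids in skin. Chemokine receptors guide leukocytes along gradients of small secreted proteins: CCR1 and CCR2 act on monocytes, CXCR3 on activated T cells, CXCR4 on many cell types, neurons included, and ACKR3 removes CXCL12 without classical G protein signalling.

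Of the 9 genes, 1 passed an unadjusted p under 0.01 in limma, and this was *Rarres2*, which was 1.32-fold higher after RA. Among all named genes 4.31% passed this threshold, 3.52% as higher and 0.792% as lower after RA. Thus 1 of the 4 chemerin genes and 0 of the 5 chemokine receptors were called, and 4 of the 9 genes had an unadjusted p under 0.05, as did 13.1% of all named genes. Calls were more frequent among named genes well above background in both channels on all 8 arrays, 5.76% against 1.91% of the others. Of the chemerin genes 2 were detected in this way, and of the chemokine receptors 1, so that the 2 counts are not alike in detection. The median log2 fold change was 0.26 over the chemerin genes and 0.12 over the chemokine receptors, against -0.0047 over all named genes. Whether these medians differ was not tested. No member had an adjusted p under 0.05 (0 in limma), as held for every probe on the array, where the lowest adjusted p was 0.222.

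All intensities and ratios below are on a log2 scale after normalisation within the array, and a ratio above 0 means a higher signal in RA than in vehicle on the same array. Each gene was read by 1 probe, printed as 2 spots except for *Cmklr1* with 1, and probes of different genes are not compared in brightness. Agilent's image software marked between 57.4% and 74.6% of probes as well above background in RA and between 61.2% and 74.5% in vehicle. On every array the share was higher in Cy5 than in Cy3, such as 74.2% against 62.1% on array 1. Whether a weak probe was marked therefore depended on the dye as well. The 8 hypothalamic neuropeptide genes with a probe, *Pomc*, *Agrp* and *Npy* among them, were well above background in both channels on every array. The spread of the ratios differed along the slide, with an SD of at most 0.209 on arrays 1 to 4 and of at least 0.304 on arrays 5 to 8, over named genes well above background throughout. The first 4 arrays formed one row of the slide and the last 4 the other, with both dye orders in each row. Arrays 6 and 7 also stood apart in the choroid plexus markers, 8 of 8 of which were lower in RA on these arrays, with medians of -1.37 and -1.42 against 0.08 to 0.59 on the other arrays. *Ttr*, the transthyretin gene, was lowest there at -4.48 and -5.11.

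**Figure D1:**
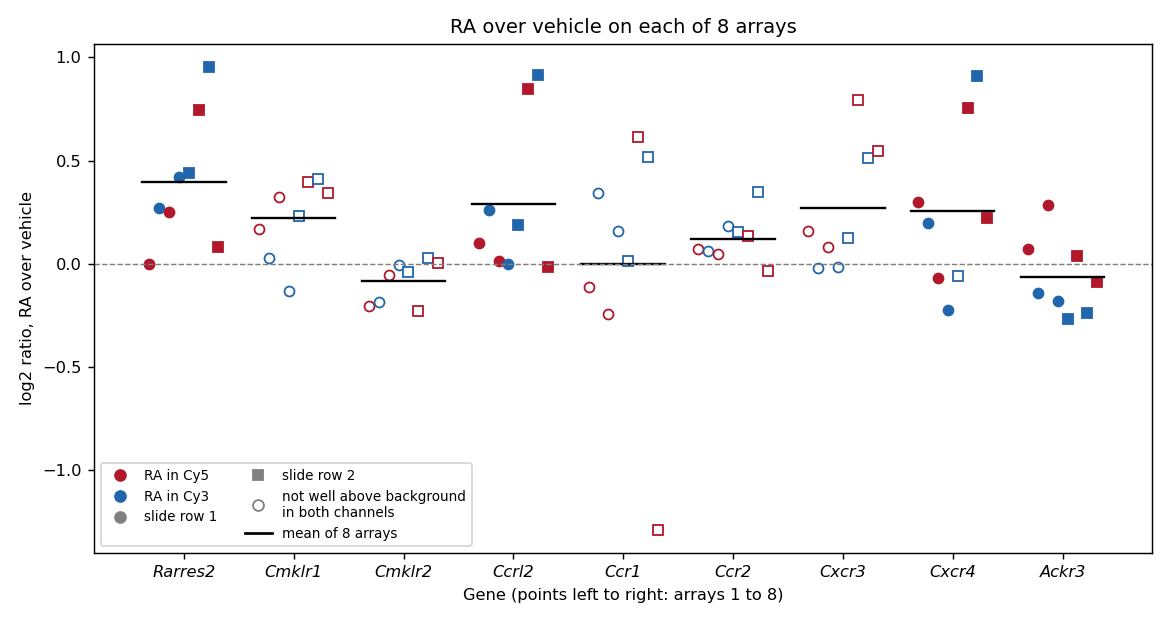
Log2 ratio of RA over vehicle (vertical axis) for each of the 9 genes (horizontal axis) on arrays 1 to 8, in that order from left to right within a gene. Red and blue are the dye orders, circles and squares the slide rows, open symbols arrays on which the probe was not well above background in both channels, and bars the mean of 8 arrays. *Rarres2* lies above 0 on 7 arrays, while *Ccrl2* and *Cxcr4* reach their highest ratios on arrays 6 and 7 and the lowest point is *Ccr1* on array 8.

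*Rarres2*, the chemerin gene (probe A_44_P281481), was well above background in RA and in vehicle on all 8 arrays. Its intensity ranged from 8.57 to 9.73 in RA, with a median of 9.08, and from 8.27 to 9.21 in vehicle, with a median of 8.70. The channels therefore overlapped between arrays, and the difference was seen within them. The ratio was 0.27 on array 2, 0.25 on array 3, 0.42 on array 4, 0.44 on array 5, 0.75 on array 6, 0.95 on array 7 and 0.08 on array 8, and on array 1 it was -0.00022. RA was thus the brighter channel on 7 of 8 arrays, which are fewer independent samples than arrays, in both slide rows and both dye orders. The 2 spots of the probe differed in ratio by a median of 0.0638, less than those of any other member printed as 2 spots.

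The log2 fold change of *Rarres2* was 0.40 ± 0.11 (SE), with an unadjusted limma p of 0.00799 and adjusted p = 0.297. The p is the largest over the 24 ways to pair arrays of opposite dye order, of which 24 gave an unadjusted p under 0.01 and the lowest gave 4.06e-05. The pairing with the highest correlation gave the largest, 0.00799. At most 1 of the 24 pairings can be the true one. The number of pairings under a threshold, here and for other members, is therefore no measure of robustness. When the signs of the 4 pair means were flipped in all ways, the exact two-sided permutation p was 0.125 in every pairing, the smallest that 4 pairs allow. The mean ratio was 0.27 ± 0.34 (SD, n = 4 arrays) with RA in Cy5 and 0.52 ± 0.30 (SD, n = 4 arrays) with RA in Cy3. It was 0.24 in the first slide row (1.18-fold) and 0.56 in the second (1.47-fold). Without arrays 6 and 7 the log2 fold change was 0.24 (unadjusted limma p of 0.00515), and without arrays 5 and 8 it was 0.44 (unadjusted limma p of 0.0138). Of 16 fits with such a pair left out 9 kept the call. It was lost without arrays 1 and 5, 3 and 2, 3 and 4, 3 and 5, 6 and 4, 8 and 4, or 8 and 5, with unadjusted limma p values of at most 0.0212. Among named genes, those with a larger ratio than *Rarres2* were 1.58% on array 7 and 1.87% on array 4, where it stood highest, and 50.9% on array 1 and 34.7% on array 8, where it stood lowest.

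The promoter windows of *Rarres2*, *Ccrl2* and *Cxcr4* are shown because these 3 members were detected on nearly all arrays and had their highest ratios on arrays 6 and 7. *Cmklr1* and *Ccr1*, which were rarely detected, were also highest on these arrays. Each runs from 250 bases before to 50 bases after the RefSeq start in rat assembly GRCr8, on the strand of the gene. The hexamer AGGTCA, the core sequence that retinoid receptors bind, was searched on both strands and is in capitals.
*Rarres2*, chr4:78856359-78856658, minus strand: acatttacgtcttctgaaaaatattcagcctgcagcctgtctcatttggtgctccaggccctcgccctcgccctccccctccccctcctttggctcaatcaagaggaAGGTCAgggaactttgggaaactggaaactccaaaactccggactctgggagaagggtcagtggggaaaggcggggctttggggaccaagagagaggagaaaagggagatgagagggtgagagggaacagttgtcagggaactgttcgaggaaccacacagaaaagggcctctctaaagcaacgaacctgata
*Ccrl2*, chr8:119914924-119915223, minus strand: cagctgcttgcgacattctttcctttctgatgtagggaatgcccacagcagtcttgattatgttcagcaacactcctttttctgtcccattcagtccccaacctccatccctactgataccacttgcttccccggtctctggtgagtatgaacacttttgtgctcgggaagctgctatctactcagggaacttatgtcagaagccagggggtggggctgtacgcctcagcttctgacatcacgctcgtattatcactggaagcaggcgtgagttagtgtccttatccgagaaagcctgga
*Cxcr4*, chr13:42634239-42634538, minus strand: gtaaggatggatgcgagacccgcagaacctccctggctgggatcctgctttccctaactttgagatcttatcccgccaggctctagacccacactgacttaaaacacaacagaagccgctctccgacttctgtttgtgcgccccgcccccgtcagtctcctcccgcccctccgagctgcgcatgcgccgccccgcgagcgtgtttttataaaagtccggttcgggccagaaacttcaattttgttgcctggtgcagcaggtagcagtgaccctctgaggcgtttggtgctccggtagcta
All 9 members had a promoter in the RefSeq table, and *Rarres2* was the 1 member with the hexamer, at position -143 from the start. The hexamer was present in 16.2% of the 33469 promoters of the table, so that its presence in 1 of 9 sets nothing apart. Direct repeats of AGGTCA spaced by 1, 2 or 5 bases, the arrangements that retinoid receptor dimers prefer, were in none of the 9 windows (0). Over the table they were in 18, 4 and 3 promoters for spacings of 1, 2 and 5. A match of letters is no evidence of binding, and its absence here says nothing of the rest of a gene. The windows held 7 CpG dinucleotides in *Rarres2*, 8 in *Ccrl2* and 20 in *Cxcr4*, against a median of 7.

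*Ccrl2*, the receptor that presents chemerin, was the 1 chemerin receptor well above background in both channels on all 8 arrays. Its intensity ran from 6.82 to 8.37 in RA, with a median of 7.41, and from 6.82 to 7.49 in vehicle, with a median of 7.34. Arrays 6 and 7 gave ratios of 0.85 and 0.91, whereas the other 6 gave values from -0.01 to 0.26. The high RA values were thus those of arrays 6 and 7, on which the vehicle channel was also the brightest of the 8. Over all arrays *Ccrl2* had a log2 fold change of 0.29 ± 0.14 (SE), with an unadjusted limma p of 0.0689 and adjusted p = 0.506, and 10 of 24 pairings gave an unadjusted p under 0.01. Without arrays 6 and 7 it was 0.09 (unadjusted limma p of 0.149). The mean ratio was 0.09 in the first slide row and 0.48 in the second.

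*Cmklr1*, the signalling receptor of chemerin, was close to the limit of detection. It was well above background in RA on 3 of 8 arrays, all 3 with RA in Cy5, and in vehicle on 0 of 8. In the same dye, Cy5, it was marked on 3 of 4 arrays for RA and 0 of 4 for vehicle, and in Cy3 on 0 of 4 for each. The ratio was between 0.03 and 0.41 on 7 arrays and -0.13 on array 4. The log2 fold change of 0.22 ± 0.067 (SE), with an unadjusted limma p of 0.0131 and adjusted p = 0.326, therefore stands on a vehicle signal that is only a bound.

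The bound sets the mean normalised RA signal against, on each array, the lowest vehicle signal among probes well above background or the probe's own, whichever was higher, after scaling that gives every array the same distribution of mean intensities. For *Cmklr1* this calculation gave 1.15-fold, from measured means of 6.59 in RA and 6.36 in vehicle. Dye orders were balanced in these means. The gene was well above background in RA on only 3 of 8 arrays, so that 1.15-fold is no secured minimum. Its mean ratio was 0.31 ± 0.098 (SD, n = 4 arrays) with RA in Cy5 and 0.13 ± 0.24 (SD, n = 4 arrays) with RA in Cy3, and 0.10 in the first slide row against 0.35 in the second. The unadjusted limma p was under 0.01 in 21 of 24 pairings but not in the pairing with the largest p. In the pairing with the highest correlation it was 0.0105. Without arrays 6 and 7 the log2 fold change was 0.16 (unadjusted limma p of 0.0455).

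*Cmklr2*, which encodes the other high-affinity chemerin receptor, was well above background in RA on 1 array and in vehicle on 1. Its intensity lay between 6.19 and 6.43 in RA and between 6.28 and 6.49 in vehicle, so that the channels overlapped. The ratio was above 0 on 2 of 8 arrays, and the log2 fold change was -0.08 ± 0.050 (SE), with an unadjusted limma p of 0.134 and adjusted p = 0.620. At this level a difference was not detectable, which does not show that there was none.

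**Figure D2:**
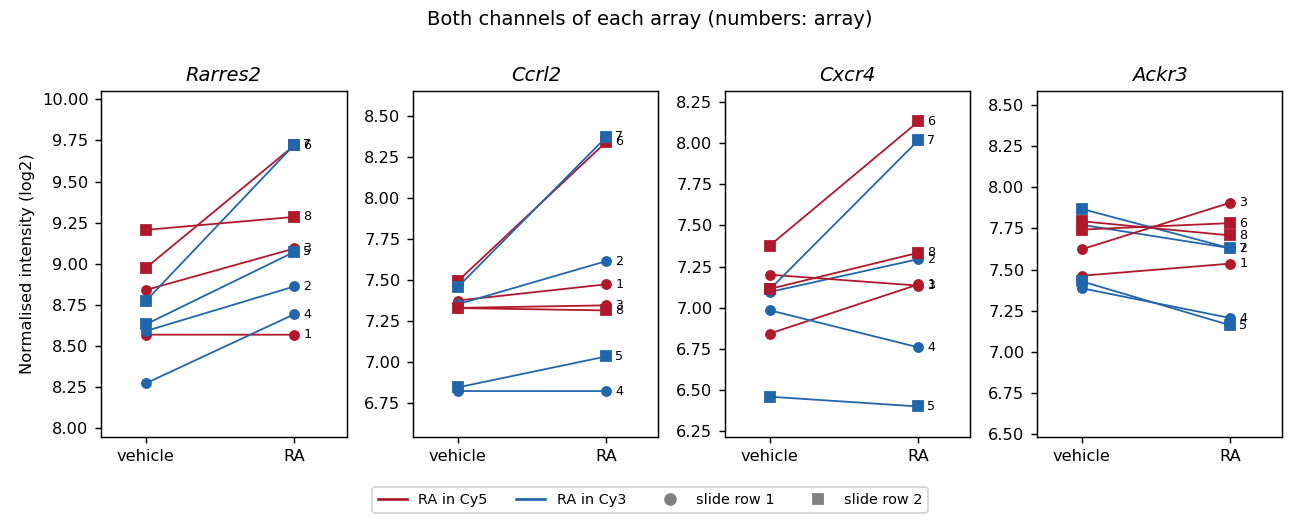
Normalised log2 intensity (vertical axis, each panel spanning the same range of log2 units) in the vehicle and the RA channel of each array for the 4 members detected on nearly all arrays. Lines join the channels of an array, numbers give the array, colours the dye order, and circles and squares the slide rows. The steepest lines of *Rarres2*, *Ccrl2* and *Cxcr4* are those of arrays 6 and 7, while the lines of *Ackr3* fall on all 4 arrays with RA in Cy3.

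*Cxcr4*, the receptor of CXCL12, was well above background in RA on 7 arrays and in vehicle on 8. Its intensity ran from 6.40 to 8.13 in RA and from 6.46 to 7.38 in vehicle, with medians of 7.22 and 7.10. Its ratio was 0.76 on array 6 and 0.91 on array 7, and ran from -0.23 to 0.30 on the other 6. Like *Ccrl2*, it was thus highest on arrays 6 and 7, and it was below 0 on arrays 3, 4 and 5. Its log2 fold change was 0.25 ± 0.14 (SE), with an unadjusted limma p of 0.113 and adjusted p = 0.587. Without arrays 6 and 7 it was 0.06 (unadjusted limma p of 0.473).

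*Ackr3*, which encodes the scavenging receptor of CXCL12, was well above background in both channels on all 8 arrays and gave no call. Its intensity was between 7.16 and 7.91 in RA and between 7.39 and 7.87 in vehicle. Its log2 fold change was -0.07 ± 0.053 (SE), with an unadjusted limma p of 0.262 and adjusted p = 0.752. Its ratios differed by dye order, with a mean of 0.08 ± 0.15 (SD, n = 4 arrays) with RA in Cy5 and -0.21 ± 0.057 (SD, n = 4 arrays) with RA in Cy3. It was below 0 on all 4 arrays with RA in Cy3 and above 0 on 3 of 4 with RA in Cy5.

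*Cxcr3*, the receptor of activated T cells, was well above background in RA on 3 arrays and in vehicle on 0. Arrays 6, 7 and 8 gave ratios of 0.80, 0.51 and 0.55, whereas the other 5 gave values from -0.02 to 0.16. The 3 high arrays were all in the second slide row, where the mean ratio was 0.49 against 0.05 in the first. Over all arrays the log2 fold change of *Cxcr3* was 0.27 ± 0.10 (SE), with an unadjusted limma p of 0.0316 and adjusted p = 0.403. Without arrays 6 and 7 it was 0.15 (unadjusted limma p of 0.0880). The calculation of the bound gave 1.13-fold, from measured means of 6.43 in RA and 6.15 in vehicle. The RA signal was also near background on most arrays, so that this is no secured minimum.

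*Ccr2*, the monocyte receptor of CCL2, was well above background in RA on 1 array and in vehicle on 0. Its ratio lay between -0.03 and 0.35 and was above 0 on 7 of 8 arrays. The log2 fold change was 0.12 ± 0.051 (SE), with an unadjusted limma p of 0.0470 and adjusted p = 0.455. The calculation of the bound gave 1.01-fold, from measured means of 6.29 in RA and 6.17 in vehicle. Both signals were near background, so that neither a difference nor its size is secured.

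*Ccr1*, which binds CCL3 and CCL5, was well above background in RA on 1 array and in vehicle on 1. Its log2 fold change was 0.0003 ± 0.17 (SE), with an unadjusted limma p of 0.999 and adjusted p = 1.00, and its ratio ran from 0.61 on array 6 to -1.29 on array 8. The value of array 8 came from 1 of the 2 spots of the probe. On that array the vehicle channel gave a median signal of 334.5 in this spot and of 71 in its duplicate, and the ratios of the spots were -2.64 and 0.06. Without the brighter spot, an alternative chosen after seeing the data, the log2 fold change was 0.17 ± 0.10 (SE), with an unadjusted limma p of 0.140. On no other array did the ratios of any member's spots differ by more than 1 log2 unit.

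**Figure D3:**
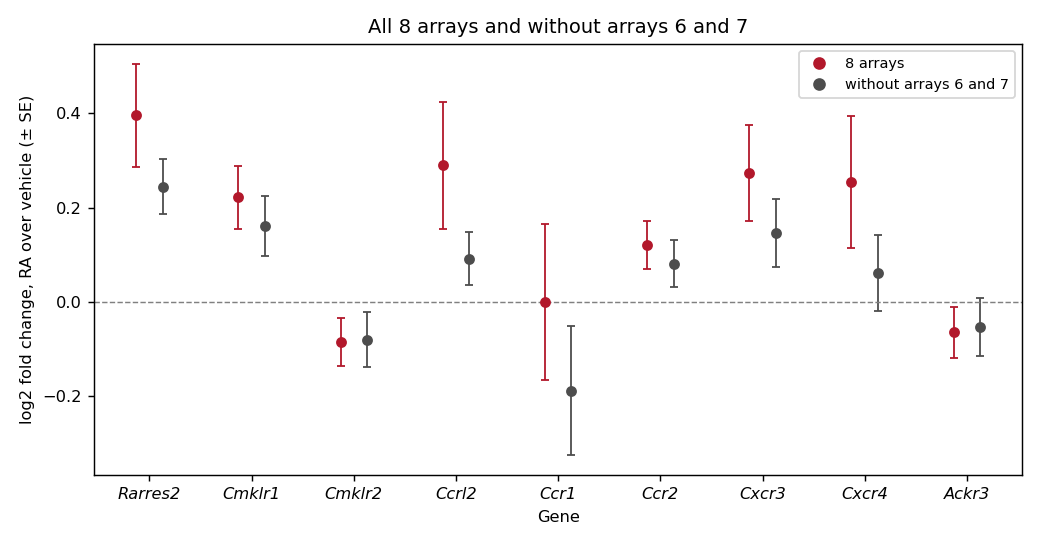
Log2 fold change of RA over vehicle with its standard error (vertical axis) for the 9 members (horizontal axis), from all 8 arrays in red and without arrays 6 and 7 in grey. *Rarres2* went from 0.40 to 0.24, *Ccrl2* from 0.29 to 0.09, *Cxcr4* from 0.25 to 0.06, *Cxcr3* from 0.27 to 0.15 and *Ccr1* from 0.0003 to -0.19.

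Leaving out arrays 6 and 7 lowered *Rarres2*, *Ccrl2*, *Cxcr4* and *Cxcr3* by over 1.5 times and turned *Ccr1* to -0.19 (unadjusted limma p of 0.219), and *Rarres2* alone of the 9 members then had an unadjusted p under 0.01. These are the arrays on which the choroid plexus markers were low, and the part of choroid plexus tissue in the values of the members was not tested. Without these arrays the remaining *Rarres2* ratios lay between -0.00022 and 0.44.

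Since several of the member receptors are carried by leukocytes, though not by these cells alone, markers of leukocytes are given beside them. Of 8 monocyte and macrophage markers with a probe, 8 were above 0 and 5 were called higher, with a median log2 fold change of 1.12, *Plac8* at 2.03 and *Cd14*, the lipopolysaccharide co-receptor, at 1.43. Their median ratio was 0.24 to 0.66 on arrays 1 to 4 and 1.42 to 1.85 on arrays 5 to 8, and their summed intensity ran from 13.1 to 15.8 in RA and from 12.4 to 13.9 in vehicle. *Ccr2* and *Ccr1*, the monocyte receptors among the members, were not called and were rarely detected beside them. Of 6 neutrophil markers 2 were called higher, *S100a9* at 1.25 and *Csf3r* at 0.42, with a median of 0.26. Their summed intensity ran from 9.29 to 11.3 in RA and from 9.22 to 9.66 in vehicle.

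Of 7 T cell markers 6 were above 0 and 0 were called, and 4 had an unadjusted p under 0.05, against 13.1% of all named genes. Their median was 0.24, and their summed intensity ran from 9.50 to 10.72 in RA and from 9.40 to 10.0 in vehicle. Detection varied among them, from *Cd3d*, well above background on all 8 arrays in both channels, to *Cd3e* and *Cd2*, each in RA on 2 arrays and in vehicle on 0. The median of these markers was 0.04 to 0.17 in the first slide row and 0.34 to 0.51 in the second, the rows between which *Cxcr3* also differed in level. Of 8 microglial markers 2 were called higher, *Aif1* at 0.88 and *Itgam* at 0.87, and *Tmem119*, a gene of resident microglia, was called lower at -0.52, with a median of 0.02. Of 6 tanycyte and ependyma markers with a probe, 3 were above 0 and 1, *Vim* at 0.62, was called higher, with a median of -0.01. The part of any of these cells in the values of the 9 members was not tested.

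Of 16 other chemokine receptors examined, 13 had a probe, and their log2 fold changes ran from -0.07 to 0.38 with a median of 0.01. The highest was *Ccr6*, a receptor of T helper cells and B cells, which was well above background in RA on 5 arrays and in vehicle on 0 and had an unadjusted limma p of 0.0328 and adjusted p = 0.406. The calculation of the bound gave 1.301-fold for it, from measured means of 6.76 in RA and 6.38 in vehicle. Its RA signal was not well above background on every array, so that this is no secured minimum. Of the 13, 5 were not well above background on any array in either channel, *Ccr4* of T cells and *Cxcr1* of neutrophils among them. *Cx3cr1*, the fractalkine receptor of microglia, was well above background throughout and had a log2 fold change of 0.08 ± 0.057. (SE)

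The ligands of the member chemokine receptors gave more calls than the member receptors. Of 10 ligands 4 were called higher and 0 lower, and 9 were above 0, with a median log2 fold change of 0.72. Among all named genes 3.52% were called higher and 0.792% lower. The median ratio of the 10 ligands was 0.18 to 0.35 on arrays of the first slide row and 0.69 to 1.07 on those of the second. *Ccl2*, the main ligand of CCR2, had a log2 fold change of 2.13 ± 0.57 (SE), with an unadjusted limma p of 0.00651. Its ratios ran from 0.13 to 1.21 in the first slide row and from 3.07 to 4.14 in the second. *Ccl12*, another ligand of CCR2, was at 1.10 ± 0.23 (SE), with an unadjusted limma p of 0.00180, and was well above background in vehicle on only 2 arrays. *Cxcl11*, a ligand of CXCR3 and ACKR3, was at 0.57 ± 0.15 (SE), with an unadjusted limma p of 0.00675, and was well above background in RA on 4 arrays and in vehicle on 1, so that its ratio rests mostly on signals near background. The remaining called ligand, *Ccl6*, was at 0.70. *Cxcl12*, the ligand of CXCR4 and ACKR3, had a log2 fold change of -0.17 ± 0.093 (SE), with an unadjusted limma p of 0.111. The difference in the number of calls between ligands and member receptors was not tested. The ligand list was chosen with earlier results of these data known, and *Ccr1*, *Ccr2* and *Cxcr3* lay near background, which limits their calls.

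**Figure D4:**
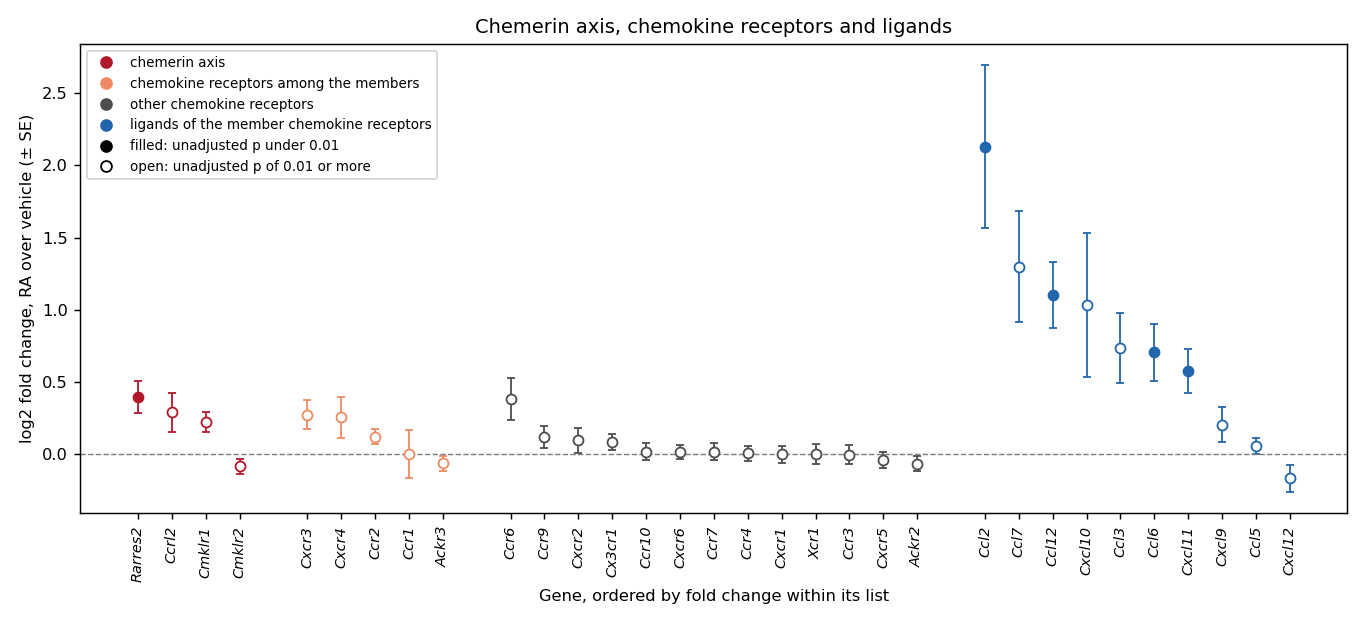
Log2 fold change of RA over vehicle with its standard error (vertical axis) for the chemerin genes, the 5 member chemokine receptors, 13 other chemokine receptors and 10 ligands (horizontal axis, ordered by fold change within each list). Filled symbols had an unadjusted p under 0.01: *Rarres2* at 0.40 and 4 ligands from 0.57 to 2.13.

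The genes that act on chemerin or downstream of its receptors gave no calls, where 4.31% of all named genes were called. At that share, 0 calls in lists this short set nothing apart. Of 16 proteases that activate or inactivate chemerin, such as plasminogen, cathepsins and carboxypeptidases, 0 were called, the median log2 fold change was -0.01 and the range was -0.16 to 0.21, with 5 of the 16 not well above background on any array. Of 10 genes for inhibitory G proteins, arrestins and receptor kinases, 0 were called, with a median of 0.01 and a range of -0.15 to 0.12, and 9 of the 10 were well above background throughout. Among genes that RA is known to regulate, 7 of 8 had a probe. Of these 7, 2 were above 0, 1 was called higher and 2 lower. Their median log2 fold change was -0.04, so that the list as a whole was not higher after RA. *Tgm2*, the tissue transglutaminase gene, was called higher at 0.60, while *Cyp26b1*, which encodes an RA-degrading enzyme, and *Dhrs3*, a retinal reductase gene, were called lower at -0.63 and -0.20.

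The genes most like *Rarres2* were sought by the root mean square difference of the ratios over the 8 arrays, among 9461 other genes well above background throughout. The smallest differences were those of *Tmbim1* at 0.11, *Cd63*, a tetraspanin of late endosomes, also at 0.11, *S100a10*, the partner of annexin A2, at 0.12, *Rhoc* at 0.12 and *Ppp1r18* at 0.13, against a median of 0.53 over all candidates. Their log2 fold changes ran from 0.34 to 0.45. For *Ccrl2* the nearest were *Hist1h2af* at 0.14, *Arpc4*, a subunit of the actin-branching Arp2/3 complex, at 0.15, the uncoupling protein gene *Ucp2* at 0.16, *Rhoc* at 0.16 and *Oplah* at 0.17, against a median of 0.49.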

How the data were processed

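Hypothalamic RNA of RA and vehicle rats was co-hybridised, with dyes swapped, to 8 Agilent two-colour arrays of 1 slide. The authors deposited the scanner output, with each spot's linear Cy3 and Cy5 intensity and Agilent's log10 ratio, and a table of normalised log2 ratios. Their methods name limma, loess and averaging of identical probes, the submitters' processing notes name limma, and a background correction is not given in the sources used here.

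The re-analysis ran in R 4.3.3 with limma 3.58.1. Median intensities were corrected by normexp (offset 50), control spots and outlier spots were left out, loess was applied within arrays, and the 2 or more spots of a probe were averaged (20 of 30367 probes lacked an array). Ratios were turned to RA over vehicle. A probe counted as well above background if a share of 0.5 or more of its spots carried Agilent's mark. Probes were named through accessions matched to RefSeq GRCr8 genes (18006 probes, 15159 genes), the brightest probe standing for a gene, and promoters came from the same assembly.

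Each probe was tested in limma on 4 pair means, a pair being 2 arrays of opposite dye order. All 24 pairings were fitted, the largest p was kept, and Benjamini-Hochberg adjustment covered 30367 probes. The p values cover the spread between these pairs of arrays, whose number limits the precision. In limma, 988 probes had an unadjusted p under 0.01 and 3292 an unadjusted p under 0.05. In a simulation of this comparison on 30347 probes, 98% of probes changed by 0.5 and 100% of those changed by 1, 2 or 3 on the log2 scale were called. No change under 0.5 was simulated, whereas every member lay below 0.5, the highest at 0.40. These shares therefore do not give the chance of calling a member, least of all one near background.

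The text names the 9 members, up to 3 genes of lowest p per list with an unadjusted p under 0.01, and the 5 genes most like *Rarres2* and *Ccrl2*. Other genes were named after their values were seen, as list members that were not called or not detected (*Ttr*, *Cd3d*, *Cd3e*, *Cd2*, *Ccr6*, *Cx3cr1*, *Ccr4*, *Cxcr1*, *Cxcl12*). *Ccl6*, a called ligand beyond the 3 of lowest p in its list, was also named in this way. The members and lists were chosen with earlier results of these data known, and 1 further chemokine receptor of the lists is not reported here. Lists of 6 other cell types were also examined. Of their genes, *Gfap* at 1.40 and *Vim* at 0.62 were called higher and *Gja1* at -0.22 lower, with 0 calls for endothelium, oligodendrocytes, neurons and choroid plexus. Of the hypothalamic neuropeptide genes, *Cartpt* at -0.42 was called lower. Alternatives covered background correction, scaling, filters, blocks, pairings, dye orders, slide rows and pairs of arrays left out.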

Additional observations from a re-analysis of the deposited data

Results flagged for a closer look

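Among the 18 sets of 4 arrays of equal dye order, 2 for each of the 9 members, 1 held an array far from the others, where chance alone gives about 1 in 20. This was *Ccrl2* on array 6, with a log2 ratio of 0.85 against ratios between -0.01 and 0.10 on the other 3 arrays with RA in Cy5. On array 7, which may carry the same rats with the dyes swapped, *Ccrl2* had a ratio of 0.91.

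For *Ackr3* the dye orders gave different values before any adjustment. Its mean log2 ratio was 0.29 higher with RA in Cy5 than with RA in Cy3, where limma, taking the 8 arrays as independent, gave an unadjusted p of 0.00908, the lowest of the 9 members examined. With 4 rats per treatment on 8 arrays some arrays share rats, so that this p is approximate, and it is not adjusted for the 9 members looked at.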

How the results depend on the processing

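*Rarres2* was above 0 in all 35 alternatives, between 0.24 and 0.56, with an unadjusted p under 0.01 in 24 of them (limma, lowest 1.75e-04). The call was lost after plain background subtraction (0.46, unadjusted p of 0.0363), with Agilent's log ratio (0.43, unadjusted p of 0.0584), with only bright probes, well above background throughout in either channel (0.40, unadjusted p of 0.0117) and with RA in Cy5 alone (0.27, unadjusted p of 0.0544). With a pair of arrays left out it ran from 0.24 to 0.48, and 9 of 16 such fits kept the call. The number of the 9 members called was 0 with subtraction, with Agilent's log ratio and with only bright probes, a filter that drops *Cmklr1*, *Cmklr2*, *Ccr1*, *Ccr2* and *Cxcr3*. It was 2 without background correction, in the deposited values, with scaling between arrays, with pairs as a random block and with RA in Cy3 alone, and 3 with 8 independent arrays, in slide row 2 alone and with slide row as a block. It was 4 in the pairing with the most calls, and 0 to 2 with a pair of arrays left out. *Cmklr1* had an unadjusted p under 0.01 in 11 of 34 alternatives and *Cxcr3* in 4 of 34. After plain subtraction *Cmklr1* and *Cxcr3* each lacked 1 array and *Ccr1* lacked 4.

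*Ccr1* changed sign without background correction (-0.0258), in the deposited values (-0.0225), with scaling (-0.0142), with RA in Cy5 alone (-0.26) and in slide row 2 alone (-0.0357), and ran from -0.19 to 0.21 with a pair of arrays left out. *Ackr3* was above 0 with RA in Cy5 alone (0.0779) and in slide row 1 alone (0.00864), and with RA in Cy3 alone it was -0.21 with an unadjusted p of 0.00846. The cause was not tested. Over the whole array 988 probes were called, against 237 after subtraction, 330 with Agilent's log ratio, 455 to 1111 with a pair of arrays left out, 1742 with the random block, 2481 with independent arrays, 3111 with slide row as a block, 3142 in the pairing with the most calls, and 2161 and 2317 within the dye orders. *Cmklr1*, *Cmklr2*, *Ccr1*, *Ccr2* and *Cxcr3* lay near background, which limits their ratios. Means over all probes of a gene left the members as they were, since each has 1 probe.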
